A study of Mus musculus with 6 samples.

Results

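Potassium channel genes were followed in open chromatin of mouse muscle nuclei. Their members were taken by name, as every gene of the promoter window table whose symbol begins with Kcn, without antisense transcripts whose symbols end in os and without Kcnq1ot1. This gave 96 of 49366 genes. Of these, 94 were protein-coding, Kcnmb4os1 and Kcnmb4os2 were non-coding transcripts, and Kcnrg, kept by its symbol, encodes a regulator and not a channel. The names encode pore subunits of the voltage-gated, inward rectifier, two-pore-domain and calcium-opened or sodium-opened channels, and the accessory subunits that bind to them.

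ATAC-seq marks accessible chromatin, since its transposase inserts sequencing adapters into exposed DNA. Nuclei of muscle fibres were sorted for the perinuclear protein PCM1 from hindlimb muscles of male C57BL/6J mice. The muscles had received adeno-associated virus (AAV6) carrying a short hairpin RNA against Yap (Yap-shRNA, 3 replicates) or, in the contralateral limb, one against the bacterial gene LacZ (LacZ-shRNA, 3 replicates), at 8 weeks of age, and were collected 28 days later. Each replicate pooled 4 gastrocnemius and 4 tibialis anterior muscles, both groups carried vector, and no untreated muscle was measured. The labels do not say which replicates of the groups came from the same mice, nor whether the fibres of a muscle were all transduced.

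Potassium channels set the resting potential of the fibre membrane and return it to rest after each action potential. In skeletal muscle, inward rectifiers hold the resting state and carry potassium back from the transverse tubules, channels coupled to sulphonylurea receptors open when ATP falls, and voltage-gated channels of the Kcna and Kcnc classes repolarise the membrane. Many other members are known chiefly from neurons, heart, kidney or smooth muscle.

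The promoter windows held 3326803 to 10319467 counts per replicate and the peaks 2588520 to 6871176, with LacZ-shRNA replicates 1 and 2 the shallowest in both tables. Levels are CPM, counts scaled to library size, after TMM normalisation, divided by the length of the window or peak in kb wherever genes are compared. A window held 1 kb to each side of every annotated start of a gene, and 21 of the 96 windows overlapped that of another gene, so that their counts are uncertain. The series' design text speaks of cardiomyocytes, while all sample labels give skeletal muscle. Of 11 marker genes of skeletal muscle fibres, 9 lay above the level of closed chromatin defined below, with summed levels of 233 to 306 CPM per kb in LacZ-shRNA and 236 to 280 in Yap-shRNA replicates. Heart markers summed to 46.7 to 54.0 CPM per kb in LacZ-shRNA and 55.8 to 56.9 in Yap-shRNA replicates, neuron markers to 36.6 to 39.8 and 35.0 to 35.7, and endothelial markers to 27.5 to 28.4 and 25.0 to 25.7, so these 3 sums did not overlap between groups. The sums of Schwann cell, smooth muscle and pericyte, fibroblast, leukocyte and satellite cell markers overlapped between groups, as did those of muscle fibres. No marker gene passed the test or was at 0, and the part of these sums in the channel results was not tested. The Yap1 window, a weak check because a hairpin acts on the RNA and because other genes' windows overlap it, stood at 0.04 on the log2 scale in Yap-shRNA against LacZ-shRNA (SE 0.18, edgeR adjusted p = 0.99).

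The promoters of 5 channel genes with high accessibility, and that of Kcnip1, which gave the smallest p-value between groups, are shown so that their base composition can be compared. They come from RefSeq (GRCm38.p6, 250 bases before to 50 after the start), which held an entry for 70 of the 96 symbols, and capitals mark CG dinucleotides.
Kcna7 promoter, chr7:45405710-45406009, plus strand: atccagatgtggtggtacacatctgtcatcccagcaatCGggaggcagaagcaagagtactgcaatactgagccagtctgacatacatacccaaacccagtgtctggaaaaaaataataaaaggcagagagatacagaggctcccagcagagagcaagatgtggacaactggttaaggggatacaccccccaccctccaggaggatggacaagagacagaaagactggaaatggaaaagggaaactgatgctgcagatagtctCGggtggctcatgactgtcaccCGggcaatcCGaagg
Kcnj2 promoter, chr11:111065914-111066213, plus strand: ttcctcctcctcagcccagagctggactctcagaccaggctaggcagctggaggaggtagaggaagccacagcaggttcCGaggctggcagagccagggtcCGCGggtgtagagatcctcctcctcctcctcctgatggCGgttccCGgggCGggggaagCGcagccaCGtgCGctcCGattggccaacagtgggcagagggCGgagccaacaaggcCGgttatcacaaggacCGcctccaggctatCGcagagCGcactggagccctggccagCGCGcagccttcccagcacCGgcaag
Kcnc4 promoter, chr3:107458849-107459148, minus strand: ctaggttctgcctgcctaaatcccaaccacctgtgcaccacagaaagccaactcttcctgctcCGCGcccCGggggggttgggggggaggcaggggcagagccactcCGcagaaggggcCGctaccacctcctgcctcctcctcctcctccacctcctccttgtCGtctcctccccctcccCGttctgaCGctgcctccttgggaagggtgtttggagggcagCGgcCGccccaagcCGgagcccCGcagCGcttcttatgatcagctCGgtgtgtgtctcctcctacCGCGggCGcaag
Kcng4 promoter, chr8:119635631-119635930, minus strand: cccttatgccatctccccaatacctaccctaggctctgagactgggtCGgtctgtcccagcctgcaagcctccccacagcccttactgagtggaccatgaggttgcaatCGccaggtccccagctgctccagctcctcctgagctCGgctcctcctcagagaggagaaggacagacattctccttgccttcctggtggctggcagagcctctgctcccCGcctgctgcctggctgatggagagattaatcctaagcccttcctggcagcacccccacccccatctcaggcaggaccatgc
Kcnc1 promoter, chr7:46396218-46396517, plus strand: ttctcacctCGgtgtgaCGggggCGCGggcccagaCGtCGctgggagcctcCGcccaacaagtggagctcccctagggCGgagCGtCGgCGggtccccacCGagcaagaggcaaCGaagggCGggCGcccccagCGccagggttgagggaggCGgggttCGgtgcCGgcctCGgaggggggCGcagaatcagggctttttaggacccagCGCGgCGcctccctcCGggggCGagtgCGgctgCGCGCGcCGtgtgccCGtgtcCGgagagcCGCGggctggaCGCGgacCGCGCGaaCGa
Kcnip1 promoter, chr11:33993144-33993443, minus strand: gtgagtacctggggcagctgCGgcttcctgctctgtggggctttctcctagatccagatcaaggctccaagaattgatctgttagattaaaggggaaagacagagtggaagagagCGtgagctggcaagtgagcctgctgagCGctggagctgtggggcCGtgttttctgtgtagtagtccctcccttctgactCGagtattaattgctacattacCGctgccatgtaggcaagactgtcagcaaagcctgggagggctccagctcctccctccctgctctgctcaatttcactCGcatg
The promoter of Kcnc1, which encodes a subunit of fast delayed rectifier channels, held 41 CG dinucleotides, that of Kcnj2 held 18 and that of Kcnc4 held 17. Kcna7 and Kcng4 held 4 each and Kcnip1 held 7, and all of these promoters except that of Kcng4 overlapped a peak. Dense and sparse CG promoters therefore both occurred among the channel genes with the highest accessibility. The E-box CAGCTG, read on either strand and known as a binding sequence of muscle basic helix-loop-helix factors, was counted in the 300 bases at the annotated 5′ end of every gene, which can differ from the RefSeq start. It was found in 20 of the 96 channel promoters read in this way (20.8%, against 15.3% of all 49324 promoters of this length). Median GC content was 60% in the channel promoters and 48% in all promoters. The Kcnip1 promoter was not among the 20, since the match at the far end of its printed promoter lies outside the bases counted. It was found in 5 of 12 genes of a list of skeletal muscle fibre channels (41.7%), among them Kcnj2, Kcng4, Kcna5 and Kcne3. The list included Kcnj2, Kcnj11, Kcnj12, Kcna5, Kcna7, Kcnc1, Kcnc4, Kcng4, Kcnma1, Kcnn3 and Kcne3, and its high levels below are a description, since it was drawn up with results of these data known.

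The highest promoter accessibility among potassium channels belonged to genes known from skeletal muscle fibres. Kcnj11 and Kcna7 led at 26.0 ± 3.82 and 25.6 ± 4.90 CPM per kb (SD, n = 6), followed by Kcnj2, Kcnc4, Kcng4, Kcnc1 and Kcnj12 at 15.7 to 19.3 CPM per kb. All 7 are on the muscle list, which was drawn up with results of these data known, so its counts and medians describe and do not test. The list had a median of 16.1 CPM per kb against 6.21 in the other 84 genes, and 4.45 over all windows. In each of 5 replicates the 7 highest channel windows were all list genes, and in Yap-shRNA replicate 3 6 of the 7 were.

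**Figure D1:**
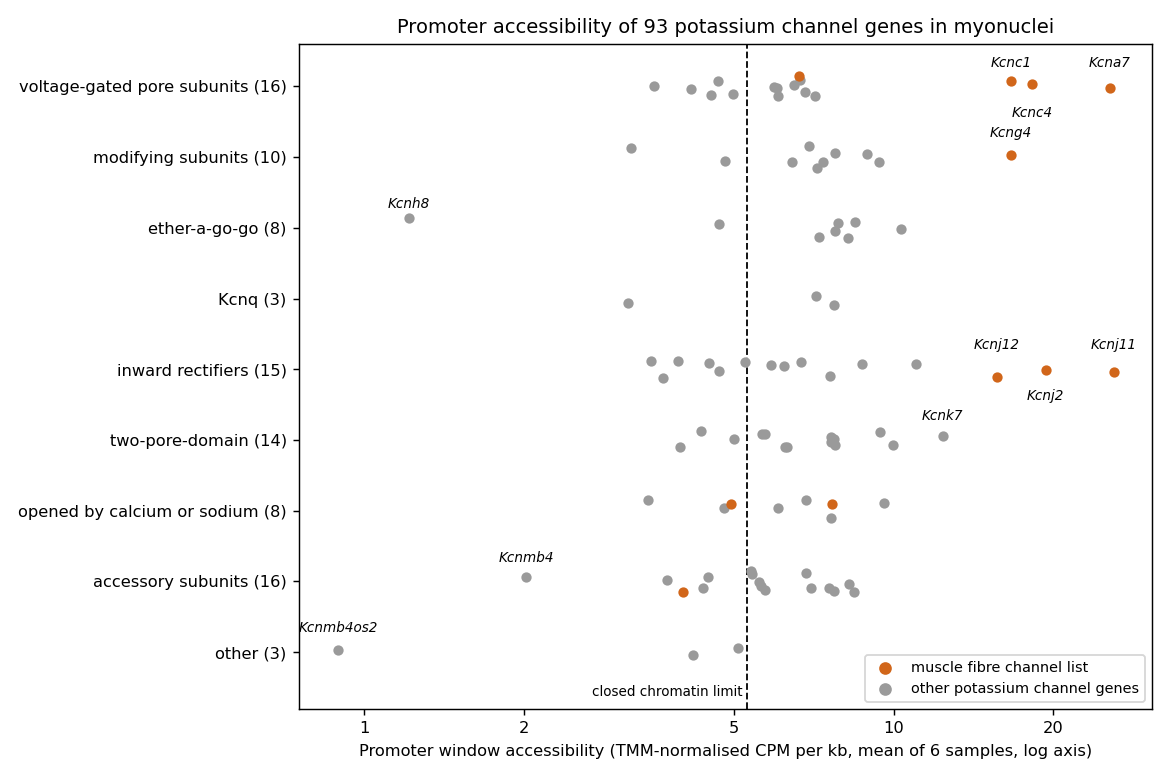
Promoter window accessibility of 93 potassium channel genes, grouped by family (number of genes in brackets), as TMM-normalised CPM per kb on a log axis, mean of 6 samples. Orange points are 11 genes of the muscle fibre list, and the dashed line is the closed chromatin limit of 5.29 CPM per kb. The 7 highest points, from Kcnj12 at 15.7 to Kcnj11 at 26.0, are all orange.

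Inward rectifiers span this range. Kcnj11, the pore of the ATP-sensitive channel, had 21.4, 30.6 and 29.1 CPM per kb in the LacZ-shRNA and 28.4, 23.5 and 22.9 in the Yap-shRNA replicates. LacZ-shRNA replicate 1 was the lowest, and the groups overlapped. Kcnj2, the strong inward rectifier that holds the resting potential, had 20.3, 17.6 and 21.9 against 21.0, 17.6 and 17.7 CPM per kb, with no separation of the groups. Kcnj12, a second strong inward rectifier of muscle, had 12.3, 16.6 and 19.7 against 15.3, 15.1 and 14.9 CPM per kb. Its Yap-shRNA values lay within the LacZ-shRNA range. Kcnj4, a strong inward rectifier known from brain and heart, held rank 10 of the 96 at 10.99 ± 1.63 CPM per kb (SD, n = 6). Kcnj8, the alternative pore of the ATP-sensitive channel and known from vessels, stood at 4.49 ± 0.88 CPM per kb (SD, n = 6). Their sulphonylurea receptor partners Abcc9 and Abcc8 had 14.0 and 12.6 CPM per kb. Kcnj3, a pore subunit gated by G proteins in heart and brain, was the lowest inward rectifier at 3.48 CPM per kb.

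Voltage-gated pore subunits showed a gap between 3 genes and the rest. Kcna7, a delayed rectifier subunit known from muscle, had 19.2, 31.4 and 30.0 CPM per kb in the LacZ-shRNA and 28.0, 22.9 and 22.1 in the Yap-shRNA replicates, again with LacZ-shRNA replicate 1 the lowest. Kcnc4, a fast-inactivating subunit, had 17.6, 22.4 and 20.1 against 17.5, 15.9 and 15.99 CPM per kb. The Kcnc4 groups did not overlap, though the nearest replicates were almost equal. Kcnc1 had 12.2, 19.0 and 17.9 against 16.6, 17.4 and 16.8 CPM per kb, with the Yap-shRNA values inside the LacZ-shRNA range. The other 14 genes of the family lay at or below 7.09 CPM per kb, the level of Kcna3. Kcna5, a muscle list gene that carries an ultra-rapid current in heart, was among them at 6.62 ± 1.07 CPM per kb (SD, n = 6), and Kcna10 and Kcna2 were as high.

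Among modifying subunits, which form channels only together with other pore subunits, Kcng4 stood alone with 16.4, 17.8 and 20.2 CPM per kb in LacZ-shRNA and 16.4, 14.8 and 14.3 in Yap-shRNA replicates. The groups overlapped narrowly, at nearly equal values. The other 9 modifying subunits ran from 3.19 (Kcng2) to 9.37 CPM per kb (Kcnf1). Of the Kcnq genes, pore subunits of slow potassium currents, Kcnq1 had 7.73, Kcnq5 7.12 and Kcnq3 3.15 CPM per kb.

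**Figure D2:**
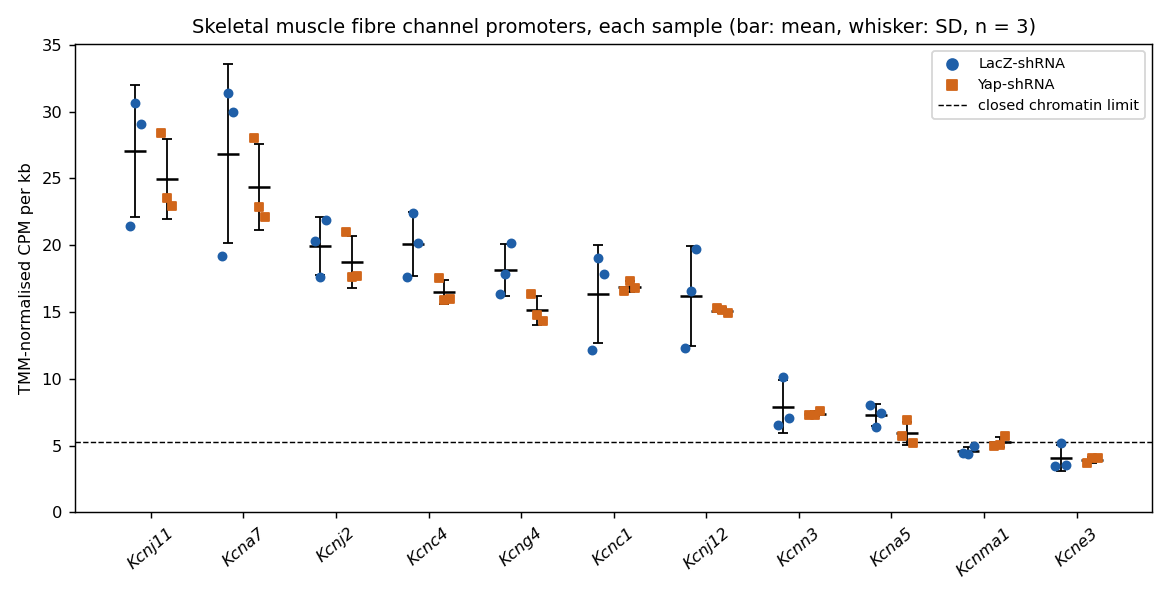
TMM-normalised CPM per kb of 11 muscle list promoters in each sample, with LacZ-shRNA as blue circles and Yap-shRNA as orange squares. Black bars are means with SD (n = 3) and the dashed line is the closed chromatin limit of 5.29 CPM per kb. LacZ-shRNA points spread widely at Kcnj11 and Kcna7, and Kcnma1 and Kcne3 have means below the line. The Kcnma1 mean is taken over a window of 14 starts that holds a promoter peak.

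Two-pore-domain channels, which carry background potassium current, ran from 3.95 (Kcnk2) to 12.4 CPM per kb (Kcnk7). Kcnk7, a member that has not been shown to pass current by itself, was the highest gene outside the muscle list. Channels opened by calcium or sodium ran from 3.44 (Kcnt2) to 9.59 CPM per kb (Kcnt1). Kcnn3, a small-conductance calcium-opened channel of the muscle list, had 7.65 ± 1.29 and Kcnma1, the large-conductance one, 4.93 ± 0.49 CPM per kb (SD, n = 6). The Kcnma1 window spans 15836 bp around 14 starts and overlaps that of 4930519K11Rik. A promoter peak inside it had 28.5 CPM per kb, so the window mean does not show that all its starts were closed. Ether-a-go-go channels ran from 1.21 (Kcnh8) to 10.3 CPM per kb (Kcnh2, the pore of a repolarising current in heart). Accessory subunits had no gene above 8.39 CPM per kb, the level of Kcnip1, and Kcne3, a muscle list gene whose window overlaps Gm34821, had 4.01 ± 0.63 CPM per kb (SD, n = 6). Kcnmb4os2 (0.89), Kcnh8 (1.21) and Kcnmb4 (2.03) were the lowest of the 96 in CPM per kb, and all 3 windows overlap that of another gene.

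The order of the levels was loose. Each of the 10 highest windows overlapped the next in the order over the 6 samples. Kcnj11 exceeded Kcna7 in 4 of 6 samples, and Kcng4 exceeded Kcnc1 in 2 of 6. LacZ-shRNA replicate 1 was the lowest of the 6 samples for 4 of the 7 highest windows, and LacZ-shRNA replicates 2 and 3 were the highest for all 7. The summed level of the 12 list genes was 154, 198 and 198 CPM per kb in the LacZ-shRNA and 178, 166 and 161 in the Yap-shRNA replicates. The spread within the control group therefore enclosed all of the Yap-shRNA sums.

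A limit for closed chromatin was taken from the windows of 1102 olfactory receptor genes, which are silent in muscle, as their 95th percentile of 5.29 CPM per kb. Of the 96 channel windows 65 (67.7%) lay above it, against 36.4% of all windows and 54.5% of protein-coding ones. The count depends on the limit. With the 99th percentile 47 lay above (49%, against 22.2% of all and 39.9% of protein-coding windows), and when all 6 samples had to exceed the limit 46 did (47.9%, against 24.1% and 43.0%). With CPM per window in place of CPM per kb 53 did (55.2%, against 23% and 50.8%). Just inside were Kcnab1 (5.38) and Kcnab2 (5.39), and just outside Kcnj1 (5.25) and Kcnmb4os1 (5.08 CPM per kb). The limit does not mark expression, because 7 of 8 heart markers and 4 of 6 neuron markers also lay above it. Promoter GC content, over the 300 bases at the annotated gene start, had a median of 60.0% in the channel genes, 48.0% over all genes and 37.3% in olfactory receptor genes. Across genes, level and GC content had a Spearman correlation of 0.23 over the 96 channel windows and 0.44 over all 49366, where genes share libraries and depth and are not independent replicates.

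**Figure D3:**
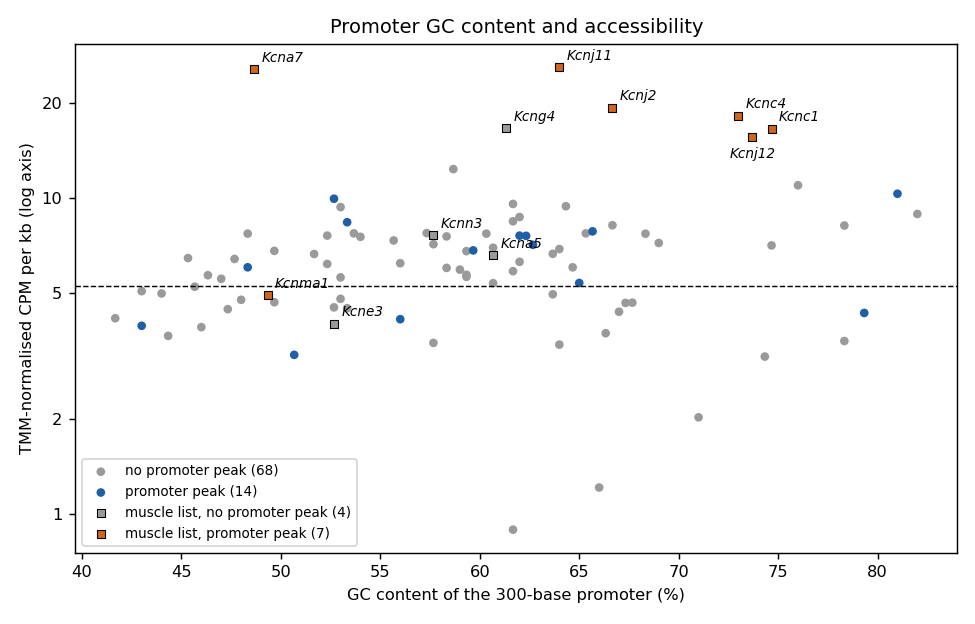
GC content of the 300-base promoter at the annotated start (%) against promoter window accessibility (TMM-normalised CPM per kb, log axis, mean of 6 samples) for 93 of the genes. Squares are the muscle list, coloured points have a promoter peak, and the dashed line is the closed chromatin limit of 5.29. Kcna7, at 48.7% GC, lies as high as Kcnj11 at 64.0%.

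Peaks, which are stretches that a caller marked in at least 2 samples, were found at a smaller share of channel genes than of protein-coding genes. A peak lay in the promoter window of 23 of the 96 channel genes (24.0%), against 51.8% of protein-coding genes and 26.3% of all 49366 windows, non-coding genes included. A peak in the window or gene body was present in 42 channel genes (43.8%) and in 59.6% of protein-coding genes, and 54 channel genes had none. Of the windows above the closed chromatin limit, 48 of 65 held no peak. In the muscle list 8 of 12 genes had a promoter peak, the exceptions being Kcng4, Kcna5, Kcnn3 and Kcne3. These shares were not tested.

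The 42 genes held 105 peaks, of which 26 were promoter peaks and 79 lay in the gene body, 75 of them in introns. Promoter peaks had a median level of 30.1 CPM and a median width of 1229 bp, and gene body peaks 11.7 CPM and 964 bp. Of the promoter peaks 5 lay at a start inside the gene, for example 10.1 kb into Kcnma1, 58.6 kb into Kcnk2, a mechanically gated background channel, and 290 kb into Kcnn2, a small-conductance calcium-opened channel. At Kcnma1 and Kcnk2 no peak lay at the first start. Kcnma1 held 13 peaks, Kcnq5 10, Kcnh1 9 and Kcnq1 7, together 39 of the 105, and 7 of the 96 genes (7.29%) had at least 4 peaks, against 6.38% of protein-coding genes. These are long genes, with 1.77 to 2.82 peaks per 100 kb. Kcnc1 held 4 peaks in 42.2 kb, or 9.48 per 100 kb, and its first start lies 20.02 kb from that of Myod1, the muscle determination factor.

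The highest peak in CPM covered most of Kcnj11 (chr7:46095580-46101643). It had 178, 222 and 207 CPM in LacZ-shRNA and 222, 200 and 183 in Yap-shRNA replicates, and over its 6.06 kb this was 33.3 CPM per kb. The Kcna7 peak (chr7:45404659-45408860) likewise ran over the promoter and most of the gene, with 94.2, 146 and 125 against 135, 118 and 108 CPM, or 28.8 CPM per kb. In Kcng4 the peak (chr8:119622869-119626304) was at the other end, centred 11.1 kb downstream of the start and reaching past the 3′ end of the gene, with 91.2, 117 and 123 against 112, 113 and 101 CPM, or 31.9 CPM per kb. None of these 3 peaks separated the groups.

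The fourth and the fifth lay in introns. The Kcnma1 peak (chr14:23941518-23944473), 71.5 kb into the gene, had 88.2, 96.8 and 95.5 CPM in the LacZ-shRNA and 76.9, 76.4 and 84.7 in the Yap-shRNA replicates. The groups did not overlap (log2 fold change -0.24, SE 0.12, edgeR adjusted p = 0.597). The Kcnj12 peak (chr11:61059296-61061677), 37.9 kb into the gene, had 68.5, 113 and 105 against 78.7, 74.1 and 74.1 CPM. LacZ-shRNA replicate 1 was below all Yap-shRNA replicates and the other two were above them.

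**Figure D4:**
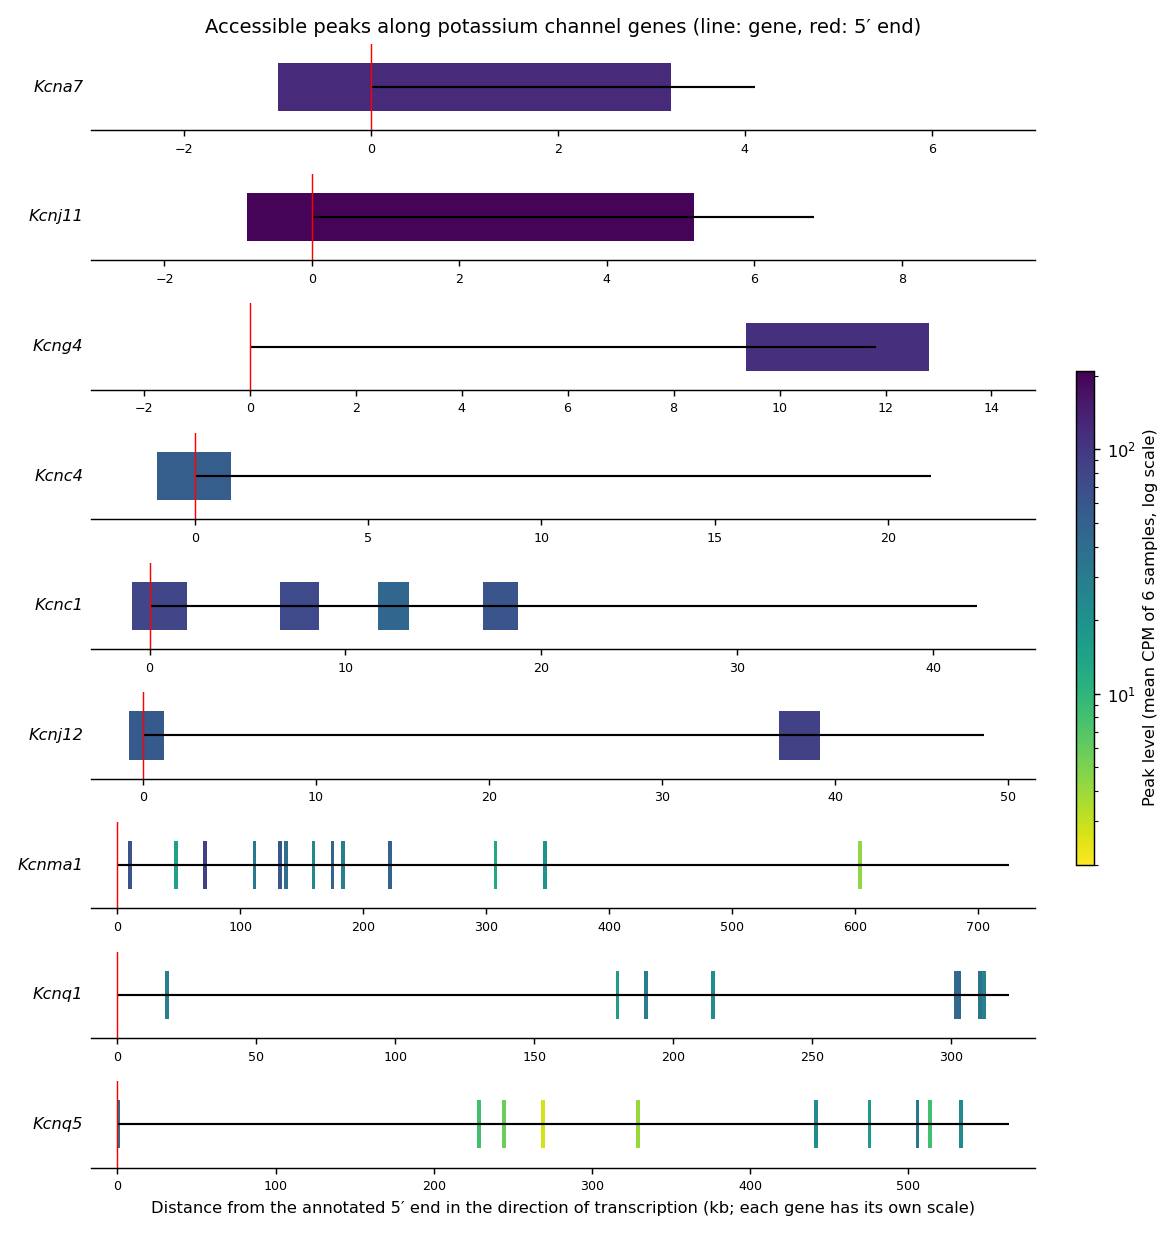
Peaks along 9 potassium channel genes, drawn by distance in kb from the annotated 5′ end (red line) in the direction of transcription, each gene on its own scale; narrow peaks are widened to be visible. Colour gives the mean peak level in CPM over 6 samples on a log scale. Kcna7 and Kcnj11 are covered by 1 peak each, the Kcng4 peak lies at the far end, and Kcnma1 holds 13 peaks within its 725 kb.

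Stretches of 2 intronic peaks are printed because both held the MEF2 consensus together with the E-box, the TEAD sequence ACATTCC and the MEF3 sequence TCAGGTT elsewhere in the peak. TEAD factors are the DNA-binding partners of Yap, and MEF2, homeobox factors that bind MEF3 and E-box-binding factors are regulators of muscle genes. The 150 bases around the MEF2 match were read from GRCm38, with the MEF2 match and, in Kcnc1, an E-box in capitals.
Kcnc1 intron peak, chr7:46408728-46408877, plus strand: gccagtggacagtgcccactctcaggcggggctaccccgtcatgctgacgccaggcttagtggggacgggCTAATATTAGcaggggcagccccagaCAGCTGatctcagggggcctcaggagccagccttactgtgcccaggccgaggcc
Kcnj12 intron peak, chr11:61059780-61059929, plus strand: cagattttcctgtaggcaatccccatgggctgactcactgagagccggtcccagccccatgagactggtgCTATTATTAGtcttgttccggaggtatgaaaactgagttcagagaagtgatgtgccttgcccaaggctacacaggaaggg
The MEF2 consensus occurred in 5 of the 105 channel peaks (4.76%, against 2.42% of all peaks), in Kcnc1, Kcnj12, Kcnq5, Kcnf1 and Kcnn2. The TEAD sequence occurred in 9 (8.57%, against 8.96%), the MEF3 sequence in 19 (18.1%, against 15.4%), the CArG box of serum response factor in 6 (5.71%, against 4.13%) and the E-box in 49 (46.7%, against 40.3%). Among promoter peaks 19 of 26 held the E-box (73.1%, against 49.1% of all promoter peaks), at median widths of 1229 and 1144 bp. Their median GC content was 64.6% against 58.9%, and the part of GC content in the E-box shares was not tested. GGACAGCGC, a part of the element bound by the neuronal gene repressor REST, occurred in 2 peaks (1.90%, against 1.07%), among them that of Kcng4. A match of letters is no evidence that a factor was bound.

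Whether knockdown of Yap altered the accessibility of these genes was asked by comparing the 3 Yap-shRNA with the 3 LacZ-shRNA replicates, with log2 fold changes given as Yap-shRNA against LacZ-shRNA. No channel window passed the edgeR quasi-likelihood test at an adjusted p of 0.05 (0 of 96, against 0.0223% of all windows, 0.00203% higher and 0.0203% lower), and the smallest adjusted p was 0.946. At an unadjusted p under 0.05 there were 2 higher and 5 lower windows, 7.29% of the 96 against 4.90% of all windows, of which 1.90% were higher and 3.01% lower. Leaving out each replicate in turn gave 0 to 7 higher and 0 to 8 lower channel windows at this limit. These were 0 to 7.29% and 0 to 8.33% of the 96, against 0.778 to 4.05% and 1.45 to 5.39% of all windows. DESeq2 and limma voom called none either. Fold changes ran from -0.46 to 0.37 with a median of -0.04, and the median of all windows was -0.01. The groups did not overlap in 13 windows (13.5%, against 10.1% of all), 5 higher (5.31% of all) and 8 lower (4.79% of all). With a median SE of 0.16 on the log2 scale, small differences were not detectable at this depth and number of replicates. A lower level in every nucleus and fewer nuclei with an open promoter cannot be told apart in pooled nuclei.

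**Figure D5:**
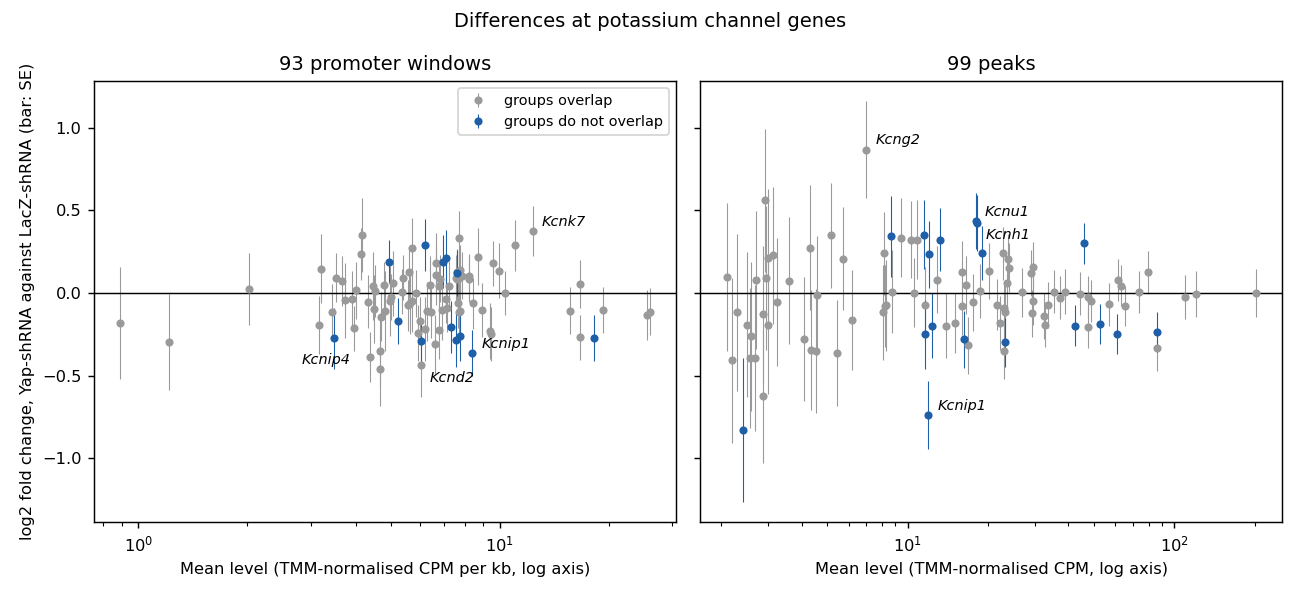
Log2 fold change of Yap-shRNA against LacZ-shRNA (bar: SE) against the mean level on a log axis, for 93 promoter windows (left, CPM per kb) and 99 peaks (right, CPM). Blue points have groups that do not overlap, and the 4 smallest p-values of each panel are named. Window values lie between -0.46 and 0.37, and the Kcnip1 promoter peak stands at -0.74.

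In the muscle list, 9 of 12 windows had negative and 3 positive fold changes, with a median of -0.11, and none had an unadjusted p under 0.05. The sign of Kcnn3 turned positive when scaled by library size alone, and that of Kcne3 turned negative with an offset for abundance. Kcnc4 had -0.27 (SE 0.14) and Kcng4 -0.27 (SE 0.14), and Kcna5 had -0.31 (SE 0.18), each with an edgeR adjusted p of 0.946. Kcnj11, Kcna7, Kcnj2 and Kcnj12 lay between -0.13 and -0.10. The values of Kcnj11, Kcna7, Kcnj2 and Kcnj12 depended on single libraries. With any 1 replicate left out, Kcnc4 stayed between -0.354 and -0.203, Kcng4 between -0.351 and -0.168 and Kcna5 between -0.435 and -0.229. Without LacZ-shRNA replicate 1, 5 of the 12 windows were lower at an unadjusted edgeR p under 0.05 (41.7%, against 4.27% of all windows in that fit), and none passed after adjustment (lowest edgeR adjusted p = 0.343). They were Kcnc4 and Kcng4, both at -0.35, Kcna7 at -0.33, Kcnj12 at -0.29 and Kcnj11 at -0.26. Without LacZ-shRNA replicate 3 none of the 12 reached that limit, against 2.77% of all windows higher and 5.39% lower. In that fit Kcna7 was at -0.02, Kcnj11 at -0.05, Kcnj2 at -0.03, Kcng4 at -0.17 and Kcnj12 at 0.08. Kcnc4 was at -0.26 and Kcna5 at -0.30. Without LacZ-shRNA replicate 2, 1 of the 12 did, Kcna5 at -0.37 (8.33%, against 5.12% of all windows lower in that fit). In the same fit Kcna7 was at -0.03, Kcnj11 at -0.02 and Kcnj2 at -0.17, and without Yap-shRNA replicate 1 these 3 were at -0.25, -0.22 and -0.19. Kcnma1 was the only one of the 12 whose Yap-shRNA values all lay higher, as in 5.31% of all windows. They were 4.997, 5.07 and 5.72 against 4.47, 4.37 and 4.95 CPM per kb (0.19, SE 0.13), and the Kcnma1 window overlaps 4930519K11Rik. The Kcnma1 promoter peak was at 0.04 (SE 0.13), with overlap. Without overlap, its intronic peaks starting at 23941518 and 23881480 were lower (-0.24 and -0.25, SE 0.12 each) and that at 23706745 was higher (0.32, SE 0.19).

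Accessory subunits led the 4 windows of smallest p-value that were lower in Yap-shRNA. Kcnip1, a calcium-binding subunit that assembles with Kcnd channels, had 10.9, 8.22 and 9.19 CPM per kb in the LacZ-shRNA and 7.79, 7.47 and 6.83 in the Yap-shRNA replicates (-0.37, SE 0.14). The groups did not overlap. Kcnip4, of the same subunit group, had 6.53, 3.82 and 4.46 against 4.23, 3.94 and 3.24 CPM per kb (-0.39, SE 0.15). Kcnd2, a pore subunit with which both assemble, had 7.96, 4.96 and 7.69 against 5.34, 5.96 and 4.34 CPM per kb (-0.44, SE 0.19). In Kcnip4 and Kcnd2 the groups overlapped, and LacZ-shRNA replicate 1 was the highest sample. Without it the Kcnip4 value was -0.15. Kcnn2 had 6.33, 6.86 and 6.78 against 5.21, 6.00 and 5.09 CPM per kb (-0.29, SE 0.13), without overlap, in a window shared with AC121957.1. Other genes of these subunit classes had values nearer to 0, with Kcnip2 and Kcnip3 at 0.08 and 0.09 and Kcnd1 and Kcnd3 at -0.05 and 0.09.

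Of the 4 windows of smallest p-value that were higher in Yap-shRNA, 2 were background channels and 2 inward rectifiers. Kcnk7 had 8.93, 13.8 and 10.04 CPM per kb in the LacZ-shRNA and 12.5, 13.7 and 15.2 in the Yap-shRNA replicates (0.37, SE 0.15). Kcnk6, of the same background channel family, had 4.96, 7.79 and 7.78 against 8.73, 7.31 and 9.75 CPM per kb (0.33, SE 0.16). Both overlapped between groups, and without LacZ-shRNA replicate 1, the lowest sample of each, Kcnk6 was at 0.14. Kcnj9, a subunit gated by G proteins and known from brain, had 5.07, 6.09 and 5.64 against 6.91, 7.13 and 6.32 CPM per kb (0.29, SE 0.16), without overlap. Kcnj4 had 8.95, 9.77 and 10.9 against 10.7, 13.4 and 12.2 CPM per kb (0.29, SE 0.15), with overlap, in a window with an unbroken stretch of 15 or more G or C bases, whose part in this value was not tested. For all 8 windows the edgeR adjusted p was 0.946.

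Fold changes were small in all families. Family medians ran from -0.11 in the 10 modifying subunits, of which 8 were negative (26007 of all 49366 windows were), to 0.07 in the 8 channels opened by calcium or sodium. Inward rectifiers had 10 of 15 negative, and 3 lower and 1 higher window without overlap (4.79% and 5.31% of all windows). The 28 partner genes of membrane excitability (sodium, chloride and calcium channels, the calcium release channel, the sodium-potassium pump, pacemaker and TRIC channels and accessory proteins of potassium channels) had 0 windows past the test, 1 higher and 1 lower at an unadjusted p under 0.05 (7.14% of the 28, against 4.90% of all windows), and a median of -0.05. The higher one was Hcn3, a pacemaker channel (0.33, SE 0.16).

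No channel peak passed the test either (0 of 105, against 0.618% of all peaks, 0.0471% higher and 0.571% lower). At an unadjusted p under 0.05 there were 4 higher and 5 lower peaks, 8.57% against 8.90% of all peaks, of which 3.59% were higher and 5.31% lower. The groups did not overlap in 18 peaks (17.1%, against 13.3% of all), 8 higher (6.55% of all) and 10 lower (6.76% of all), and the median fold change was -0.02.

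The peak nearest to the threshold was at the Kcnip1 promoter (chr11:33992994-33993409), centred 49 bases before the start, where it overlaps 4930469K13Rik. It had 14.8, 12.7 and 16.9 CPM in the LacZ-shRNA and 8.92, 9.87 and 8.44 in the Yap-shRNA replicates, with all Yap-shRNA values below all LacZ-shRNA values. On the log2 scale the difference was -0.74 (SE 0.20, edgeR adjusted p = 0.0868). With edgeR's likelihood-ratio test the adjusted p was 0.0357, so the call depends on the test, and the fold change stayed between -0.82 and -0.60 under all alternatives tried. The peak lies inside the Kcnip1 window, so the fold changes of the window and the peak rest in part on the same reads.

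Other lower peaks with small p-values lay in genes of different classes. The Kcnj12 intronic peak with the MEF2 match stood at -0.34 (SE 0.14, edgeR adjusted p = 0.405). Without LacZ-shRNA replicate 1 it was -0.53 with an adjusted p of 0.0356, so this replicate decided the call. A peak over the exon of Kcnf1, a modifying subunit, had -0.35 (SE 0.17, edgeR adjusted p = 0.542), and its groups overlapped. Without LacZ-shRNA replicate 3 it was at -0.10, without Yap-shRNA replicate 3 at -0.21 and without Yap-shRNA replicate 1 at -0.53.

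Higher peaks were led by Kcng2, a modifying subunit, where an intronic peak had 4.38, 7.64 and 3.68 CPM in the LacZ-shRNA and 7.49, 9.59 and 9.26 in the Yap-shRNA replicates. This rested on 16 to 25 counts per LacZ-shRNA replicate, and the groups overlapped (0.87, SE 0.29, edgeR adjusted p = 0.245). In Kcnu1, a channel known from sperm, an intronic peak had 15.6, 11.5 and 17.8 against 20.6, 23.1 and 19.5 CPM (0.43, SE 0.17, edgeR adjusted p = 0.373). The Kcnh1 promoter peak, an ether-a-go-go channel, had 14.5, 16.1 and 16.1 against 21.2, 23.5 and 17.9 CPM (0.42, SE 0.17, edgeR adjusted p = 0.382). Neither overlapped between groups. The Kcnc1 intronic peak shown above (chr7:46408177-46409742) had 43.0, 39.9 and 40.8 against 51.4, 54.5 and 46.5 CPM, all Yap-shRNA values being higher (0.30, SE 0.12, edgeR adjusted p = 0.415). The other 3 Kcnc1 peaks had fold changes of 0.01, 0.08 and 0.12, and all of them overlapped between groups.

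Runs of at least 15 G or C bases, which occurred in 30.5% of the 223 peaks called over the whole table against 1.12% of all peaks, occurred in none of the 105 channel peaks. They occurred in 4 of the 96 channel windows (4.17%, against 2.64% of all windows), those of Kcnc2, Kcnj4, Kcnu1 and Kcnj14.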

How the data were processed

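ATAC-seq reads of 6 samples were processed by the authors. They mapped paired reads to GRCm38 with BWA 0.7.17, discarded duplicates (SAMtools 1.8), ran MACS 1.4.2-1 for peaks, merged peaks found in at least 2 samples and counted reads with featureCounts 1.5.0, as stated in the study's methods and the submitters' processing notes. The deposited counts are raw read counts per peak (36097) and per promoter window (49366), and the lowest row mean was 10 in both tables. Whether a mapping quality filter was used for these tables is not given in the sources used here.

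All 49366 window identifiers matched the annotation. A window was read as all bases within 1 kb of any annotated start, an extent that held in 359 of 359 informative windows. Counts were tested over each whole table with edgeR 4.0.16 (R 4.3.3), using its quasi-likelihood test, TMM scaling and the group as the only term, and p-values were adjusted by Benjamini-Hochberg with a threshold of 0.05. The pipeline was tested on simulated data. Channel peaks overlapped a member's gene body or window. Members, lists and tests were chosen with earlier results of these data known. Named windows were the 10 highest, the muscle list, and the 4 smallest p-values in each direction. Named peaks were the 5 highest and the 4 smallest p-values in each direction. Some genes that these rules name stay in the fits and counts but are not reported here. Alternatives were DESeq2 1.42.0, limma 3.58.1 (voom), a likelihood-ratio test, other scalings and filters, a replicate block and leaving out each replicate. Replicates differed by more than counting noise, with a chi-square per feature of 1.95 to 6.90. The study describes its replicates as independent animals, with the muscles of each replicate pooled. It gave the Yap-shRNA and LacZ-shRNA vectors to contralateral muscles, so by its design both groups share mice. Which mice gave which replicate is not given in the sources used here, and the main test did not pair the groups.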

Additional observations from a re-analysis of the deposited data

How the results depend on the processing

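No channel window passed an adjusted p of 0.05 under any alternative that gave it one. DESeq2 gave none for 38284 of 49366 windows and 12597 of 36097 peaks. Channel peaks past the threshold numbered 0 except with the likelihood-ratio test (1, Kcnip1) and without LacZ-shRNA replicate 1 (1, Kcnj12). Over all 36097 peaks these fits called 378 and 189. Leaving out replicates thus gave 0 to 1 channel peaks. Deviations of same-numbered replicates had correlations of 0.19, -0.12 and 0.09 in windows and 0.02, -0.09 and -0.14 in peaks. Other pairs ran from -0.26 to 0.20 in windows and from -0.04 to 0.14 in peaks. With 3 replicates per group such values cannot decide whether the numbers pair the samples. With a replicate block 0 channel windows and 0 channel peaks passed, and calls over all features were 13 against 11 windows and 207 against 223 peaks. Over all windows, calls rose from 11 to 157 without LacZ-shRNA replicate 1. Directions reversed only for named values near 0. With library size alone, which moved the median of all peaks to 0.14, Kcnn3 was at 0.0053 and the top peaks of Kcnj11, Kcna7 and Kcng4 at 0.14, 0.14 and 0.12. With an offset for abundance these 3 peaks were at 0.147, 0.0788 and 0.0522 and the Kcne3 window at -0.0057. DESeq2 put Kcne3 at -0.0018 and limma voom the Kcna7 peak at 0.0132. Leaving out replicates gave -0.12 to 0.16 for Kcnc1, -0.289 to 0.0846 for Kcnj12, -0.16 to 0.12 for Kcnn3, -0.0781 to 0.179 for Kcne3, and -0.0863 to 0.0632, -0.157 to 0.129 and -0.145 to 0.0778 for the Kcnj11, Kcna7 and Kcng4 peaks. Of the other values of these results, 389 of single windows and peaks kept their direction and side of the threshold, and 41 of counts stayed within 1.5 times the reported count, among them the windows above the closed chromatin limit, which fell from 65 to as few as 46. The 389 include values without a DESeq2 adjusted p, such as that of Kcna5, for which only the direction was compared. Depth limits low peaks most.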
